A study of Mus musculus with 24 samples.

Results

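The Gadd45 family comprises 3 small genes in mouse, Gadd45a, Gadd45b and Gadd45g, named for growth arrest and DNA damage. Protein-protected sites (PPSs) on these genes were taken as every listed PPS that overlapped the gene body on the same strand, in the mm10 genome build with GENCODE annotation. The family makes up 3 of 21938 protein-coding genes, and it held 45 of the 460777 PPSs in the lists of 3 days. Of these, 22 lay on Gadd45a, 5 on Gadd45b and 18 on Gadd45g, and no PPS lay on the opposite strand of any of the genes.

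The sites come from PIP-seq of MEL cells, mouse erythroleukemia cells in culture that mature along the red cell lineage once 2% DMSO is added. Cells before induction (day 0) and after 2 and 4 days with DMSO were treated with formaldehyde to fix RNA to protein, and their RNA was then digested with an RNase specific for single-stranded RNA (ssRNase) or for double-stranded RNA (dsRNase). Each day has 8 libraries, which are 2 replicates of each RNase with proteins present during the digestion (the footprint libraries) and 2 with proteins removed beforehand. A PPS is a stretch where the footprint libraries carried more reads than the protein-free ones, and each PPS lists the calls merged into it, which gave 12 call sets (3 days, 2 RNases and 2 replicates). Call sets held 20927 to 91091 calls, and the lists do not give the reads behind a site. Of 10 erythroid marker genes, 7 held an exonic PPS at day 0, 9 at day 2 and 10 at day 4, whereas none of 5 myeloid, 4 lymphoid and 3 fibroblast markers held any.

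GADD45 proteins are small and acidic and have no known enzyme activity of their own. They act by binding others, among them the kinase MAP3K4 upstream of p38 and JNK, the CDK1 and cyclin B1 complex of mitotic entry, and the replication clamp PCNA. Their messages are short-lived and are switched on by stress, DNA damage and terminal differentiation. Gadd45b was first known from differentiating myeloid cells, and Gadd45a is a p53 target.

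The 3 genes share a plan of 4 exons with 3 introns, and the last exon holds the end of the coding sequence and the whole 3′ UTR. Gadd45a lies at chr6:67035096-67037457 on the minus strand, and the spliced transcript with the longest coding sequence has 162 nt of 5′ UTR, 498 nt of coding sequence and 563 nt of 3′ UTR. Gadd45b lies at chr10:80930073-80932204 on the plus strand, with 243, 483 and 558 nt. Gadd45g lies at chr13:51846678-51848468 on the plus strand, with 102, 480 and 489 nt. None of them shares exonic nucleotides with another gene on the same strand.

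The sequences that follow are from the mm10 genome, 30 nt each and written 5′ to 3′ on the strand of the gene. The first set shows the middle of the stretch that recurred between days in each 3′ UTR and in intron 3 of Gadd45a. Capitals mark the word ATTTA, the core of AU-rich elements, where it occurs.
Gadd45a 3′ UTR, days 0, 2 and 4, chr6:67035393-67035422 minus: gcactgcaagaaagaaaactgctaATTTAg
Gadd45a intron 3, days 0, 2 and 4, chr6:67036314-67036343 minus: ctggatatagatagatactctgaagtgtac
Gadd45b 3′ UTR, days 2 and 4, chr10:80931827-80931856 plus: ccgcccgccctctgggctgtggagccagga
Gadd45g 3′ UTR near the stop codon, days 2 and 4, chr13:51848060-51848089 plus: ctcgagtgcgcgtggagactggcaggcgat
Gadd45g 3′ UTR farther on, days 2 and 4, chr13:51848215-51848244 plus: aggacgttggccccagggccgggaagaacc

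The second set is a stretch of exon 3, in which the only coding PPSs of Gadd45b were listed. Capitals mark the 16 of 30 bases that are shared by all 3 genes.
Gadd45a exon 3, chr6:67036852-67036881 minus: gctGAcGAAGAcGAcGAccggGAtgTgGCt
Gadd45b exon 3, chr10:80931063-80931092 plus: ataGAcGAAGAaGAgGAggatGAtaTcGCt
Gadd45g exon 3, chr13:51847590-51847619 plus: gccGAtGAAGAaGAtGAgggcGAcaTaGCg

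The family held 9 listed sites at day 0, 15 at day 2 and 21 at day 4, but its members followed different courses. Gadd45a was occupied throughout, with 8, 7 and 7 PPSs. Gadd45b had none at day 0, 3 at day 2 and 2 at day 4, and Gadd45g went from 1 to 5 to 12. Of the 45 sites, 18 held calls of both replicates, 15 held calls of both RNases and 24 rested on a single call. In the whole day 0 list, 96422 of 138689 PPSs rested on a single call. At day 2 it was 124504 of 169575 and at day 4 100080 of 152513. No such share is given for calls of both replicates or of both RNases. The family was chosen by its PPS counts and coverage over the 3 days, so these values and those of each day are a description, with no test. Among 9550 protein-coding genes with an exonic PPS at some day, 75.2% had one at all 3 days, as Gadd45a and Gadd45g did, and 11.9% had one after induction only, as Gadd45b did.

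**Figure D1:**
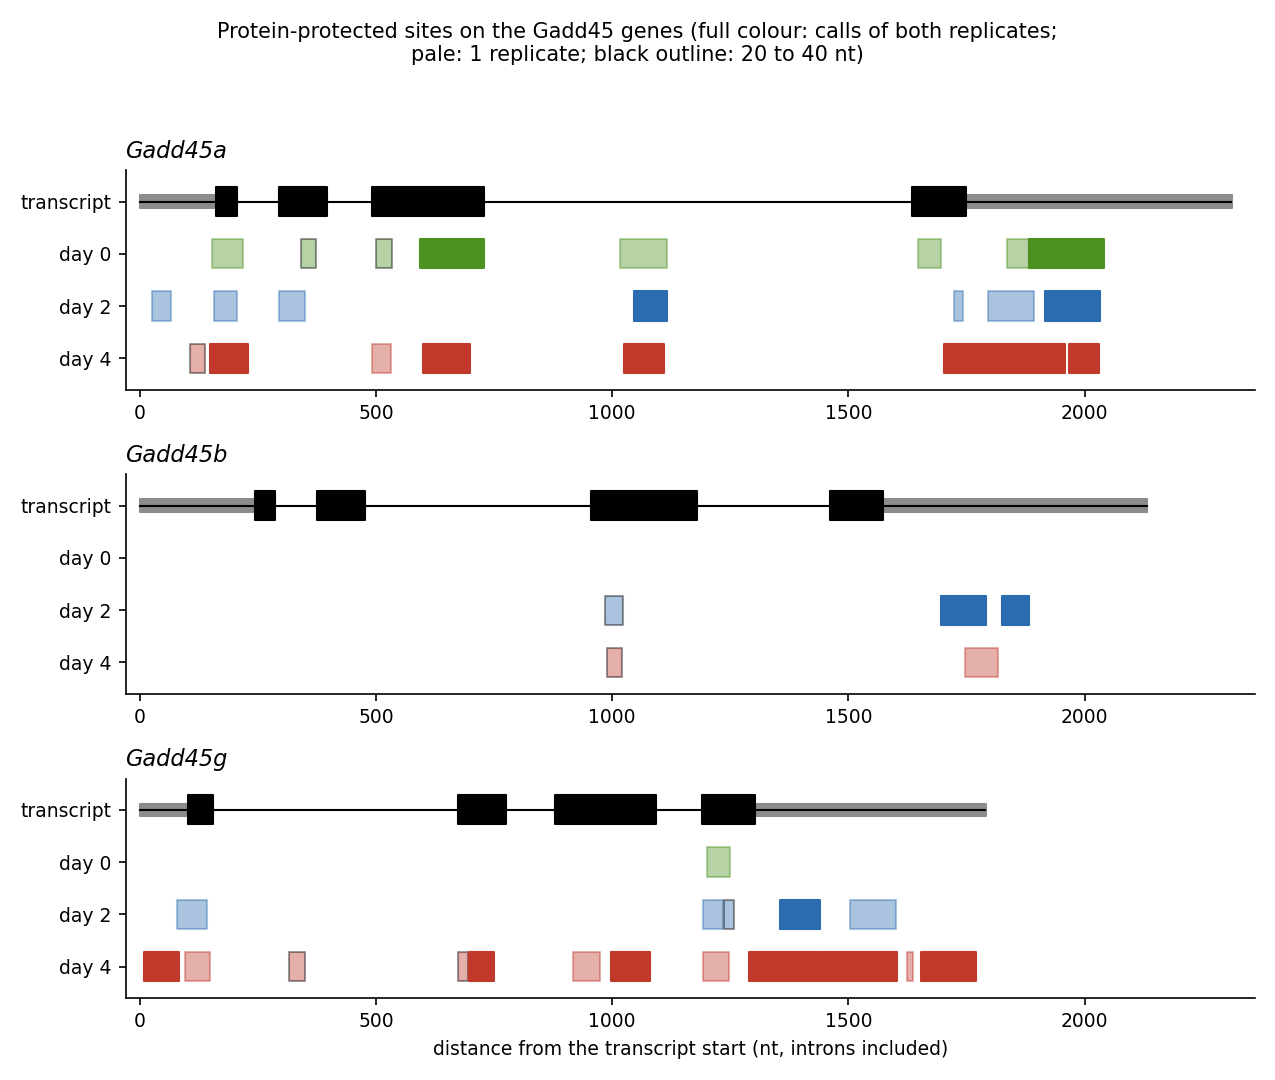
The x axis gives the distance from the transcript start in nt, introns included, and each bar is a PPS at the day named on the y axis, below the transcript with its coding parts (tall black boxes) and UTRs (grey). Gadd45a carried sites at every day, the first sites of Gadd45b were those of day 2, and the 12 sites of Gadd45g at day 4 reached from the 5′ UTR to the end of the 3′ UTR.

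Exonic coverage, the percentage of a gene's exonic nucleotides that lay in a PPS, put the members on a scale that takes their length into account. PPSs of 20 to 40 nt, the size left by a ribosome, were left out of it. A replicate's value counts the PPSs that held at least 1 of its calls. Since replicates of a day share merged coordinates, their spread is understated. With 2 replicates against 2, an exact permutation test cannot give a two-sided p below 0.333, so differences are given as the range over the 4 pairs of replicates. More RNA of a gene and more protection of the same RNA cannot be told apart in these lists.

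Gadd45g changed most. Its exonic coverage was 4.09% and 0% in the day 0 replicates, 7.16% and 24.5% at day 2, and 68.3% and 55.6% at day 4. The replicates of the 3 days did not overlap. Means were 2.05% ± 2.89, 15.8% ± 12.2 and 61.9% ± 8.98 (SD, n = 2 each). The merged list of day 4 covered 69.5% of Gadd45g, 65.4 points more than that of day 0, with a range over pairs of 51.5 to 68.3 points. Among the 9550 genes with an exonic PPS, 3 rose by as much or more, Gadd45g itself included. All day 4 replicates lay above all day 0 replicates in 30.8% of those genes, and below them in 25.4%.

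The day 2 step of Gadd45g was 20.4 points, and its range of 3.07 to 24.5 points came from the spread between its day 2 replicates. A rise at least that large was seen in 0.429% of genes, and 22.3% of genes had both day 2 replicates above both of day 0. From day 2 to day 4 the gene gained another 45.0 points, with a range of 31.1 to 61.1, and 33.8% of genes had non-overlapping replicates in that direction.

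Gadd45a was covered in both replicates of every day. It had an exonic coverage of 26.8% and 16.6% at day 0, 14.5% and 13.5% at day 2, and 29.0% and 31.3% at day 4. Both day 2 replicates lay below those of day 0, and both day 4 replicates lay above all others. Means were 21.7% ± 7.22, 14.0% ± 0.641 and 30.2% ± 1.64 (SD, n = 2 each). The day 4 list stood 4.54 points above the day 0 list, with a range over pairs of 2.21 to 14.7. A rise of that size or larger was listed for 18.8% of genes. From ssRNase calls alone the same difference was -3.23 points. Its day 2 list stood below the day 0 list, with a difference of -5.44 points and pairs from -13.3 to -2.15, a direction without overlap that 30.4% of genes shared. It turned to 4.76 points when replicate 1 of day 0 was left out, and to 7.37 points from dsRNase calls alone.

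The day 2 and day 4 lists of Gadd45a differed by 9.98 points, with pairs from 14.6 to 17.8. The pairs exceed the difference between the lists because 3 of the day 2 sites had calls of replicate 2 alone and 2 had calls of replicate 1 alone, so that the merged list covered more than either replicate.

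Gadd45b was the least covered member. At day 0 none of its exonic nucleotides lay in a PPS in either replicate. Day 2 gave 9.63% in each replicate, since both held calls in the same merged sites, and day 4 gave 4.34% and 0%. The day 4 replicates overlapped those of day 0, and lay below those of day 2 with pairs from -9.63 to -5.29 points, as in 19.3% of genes. A rise from day 0 to day 2 as large as that of Gadd45b was found for 2.68% of genes. An empty list says that no stretch passed the authors' threshold, not that the message was absent or free of protein.

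**Figure D2:**
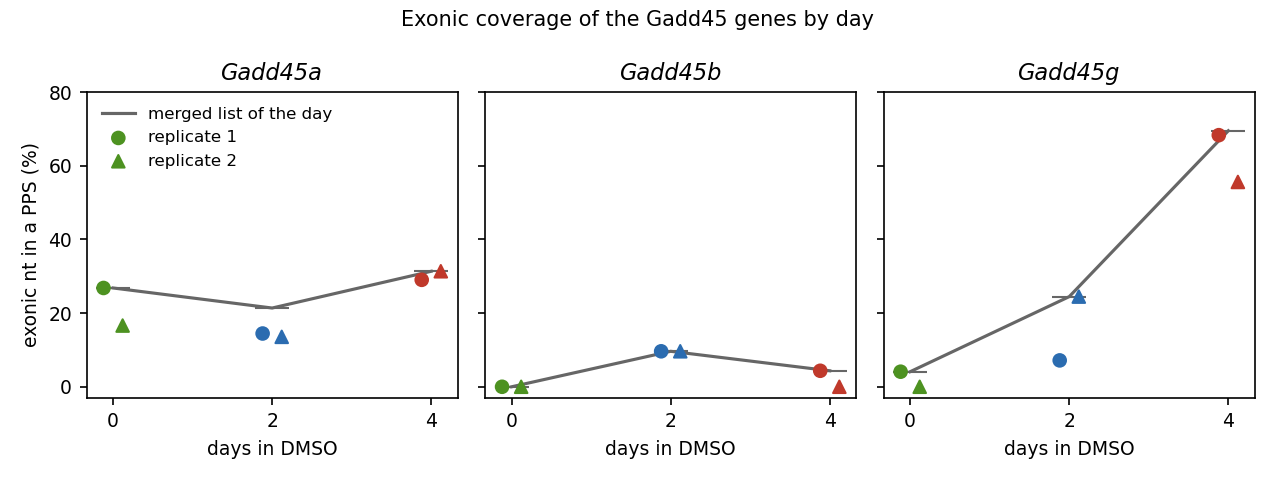
Exonic coverage in percent against the days in DMSO for each gene, with circles for replicate 1, triangles for replicate 2 and a line through the merged list of each day. Gadd45g climbed to 69.5% at day 4, Gadd45a stayed between 13.5% and 31.3% in its replicates, and Gadd45b reached at most 9.63%.

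The RNases see different RNA, since ssRNase leaves protected single-stranded stretches and any paired ones, whereas dsRNase leaves protected paired stretches and any unpaired ones. The coverage of a call set counts the whole of every merged PPS in which that set held a call. A site with calls of both RNases thus gives both the same nucleotides, so likeness between the RNases is partly built in. The coverage of Gadd45g rose from day 0 to day 4 with either RNase. Some day 4 sites of Gadd45g held calls of dsRNase only, and others of ssRNase only. Its ssRNase coverage was 0% in both day 0 replicates, 7.16% and 24.5% at day 2 and 47.2% and 33.6% at day 4. The dsRNase values were 4.09% and 0%, then 7.16% and 8.27%, then 34.3% and 42.4%. All 4 pairs of day 4 and day 0 were higher at day 4 within each RNase. The range was 33.6 to 47.2 points for ssRNase and 30.2 to 42.4 points for dsRNase. The share of all genes whose replicates stayed apart within an RNase is not given, for Gadd45g or for Gadd45a below. Such non-overlap within an RNase is thus not set against the other genes.

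For Gadd45a the RNases gave different ranges from day 0 to day 4, although the difference between them was not tested. With ssRNase its coverage was 24.0% and 16.6% at day 0, 7.82% and 9.35% at day 2 and 20.8% in both replicates of day 4, so that day 0 and day 4 overlapped and 2 of 4 pairs were higher at day 4. With dsRNase it was 11.7% and 8.90% at day 0, 12.1% and 6.92% at day 2 and 23.4% and 25.7% at day 4, and all 4 pairs of day 4 and day 0 were higher at day 4, by 11.7 to 16.8 points. From day 2 to day 4 all 4 pairs were higher at day 4 with either RNase, by 11.5 to 13.0 points for ssRNase and by 11.2 to 18.8 points for dsRNase. The dsRNase call sets as a whole also grew between day 0 and day 4, from 34589 and 41265 calls to 68632 and 52174. Calls per 100000 of a set were counted over sites of all lengths. On that scale Gadd45a had 8.67 and 7.27 dsRNase calls at day 0 and 5.83 and 11.5 at day 4, which overlap. At day 0 each replicate had 1 dsRNase call on a site of 20 to 40 nt, a class left out of the coverage. No dsRNase call of day 4 lay on such a site. Whether the rates overlap without that class is not given here. The part of the size of the call sets in the dsRNase rise of Gadd45a was not tested.

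On the same scale of calls per 100000, Gadd45g had 0 in both ssRNase sets of day 0 and 14.5 and 5.53 at day 4, and 2.89 and 0 in the dsRNase sets of day 0 and 5.83 and 13.4 at day 4. Its replicates of the 2 days stayed apart on that scale too, with no share of all genes beside it. Gadd45b gave calls in all 4 sets of day 2, of 2.65, 1.10, 4.84 and 4.78 per 100000, and in 2 of the 4 sets of day 4. The shallowest call set, dsRNase replicate 2 of day 2 with 20927 calls, still held 3 calls on Gadd45a, 1 on Gadd45b and 1 on Gadd45g.

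**Figure D3:**
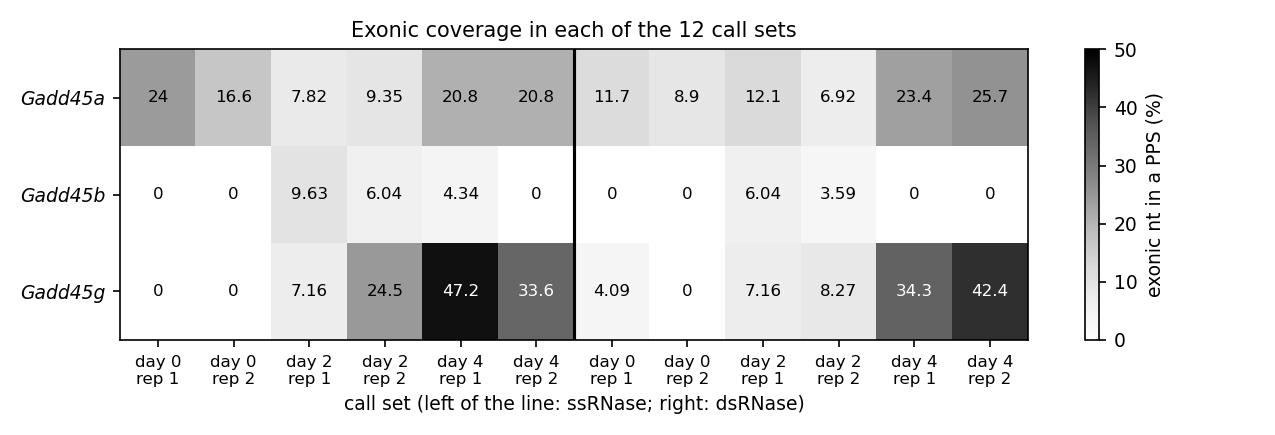
Exonic coverage in percent in each of the 12 call sets (columns, by RNase, day and replicate) for the 3 genes (shade and number). The 4 day 4 sets of Gadd45g, from 33.6% to 47.2%, are the highest of the map, and Gadd45a was covered in every set.

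With PPSs of 20 to 40 nt left out, the 3′ UTR was the part of the transcripts in which every member had protected sites. At day 4 Gadd45g had 87.5% of its 3′ UTR in a PPS (84.7% and 87.5% in the replicates), Gadd45a 48.8% (48.8% in both) and Gadd45b 12.4% (12.4% and 0%). The mean over all genes was 8.97%. At day 2 the values were 37.0% for Gadd45g (17.2% and 37.0%), 38.0% for Gadd45a (38.0% and 20.8%) and 27.4% for Gadd45b (27.4% in both), against a mean of 5.84%, so that every replicate was above it. The day 2 coverage of Gadd45b lay wholly in its 3′ UTR, and its short exon 3 site of 37 nt is not part of it.

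Within the 3′ UTR, positions are counted from 1 at the first nt after the stop codon. No site reached beyond position 292 in Gadd45a or 308 in Gadd45b. In Gadd45a the window from 201 to 300 nt was covered at 92%, 84% and 75% at the 3 days, and the windows from 301 to 500 nt at 0% at every day. Gadd45b at day 2 had 78% of nt 101 to 200 and 67% of nt 201 to 300 protected, 8% of nt 301 to 400 and none of the first 100. Gadd45g at day 4 was protected over 100%, 98%, 100% and 62% of its first 4 windows of 100 nt, where the means over all genes were 12.8%, 11.5%, 10.6% and 10.3%.

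The highest-scoring family site was in the 3′ UTR of Gadd45a. At day 0 it spanned chr6:67035367-67035523, 136 to 292 nt after the stop codon, with a score of 55.33 from 6 calls that included all 4 call sets. The score is the authors' enrichment value, and a merged site appears to sum those of its calls, since the lowest score was 5.4 for single calls and 10.8 for merged pairs. Only 0.376% of the day 0 list scored as high. At day 2 the site read chr6:67035375-67035491 with a score of 19.53 from 2 calls, and a neighbour at chr6:67035515-67035611 had 20.35 from 3 calls. At day 4 a 255-nt site at chr6:67035449-67035703 crossed the stop codon and reached 210 nt beyond it, with a score of 52.99 from 6 calls, and chr6:67035376-67035440 had 21.83 from 2 dsRNase calls. The stretch printed above lay in a PPS at all 3 days.

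The 3′ UTR of Gadd45b held 2 sites at day 2, each with calls of both replicates. The first, chr10:80931769-80931864 (123 to 218 nt after the stop codon), scored 28.19 from 3 calls, which 3.53% of that list reached. The other, chr10:80931898-80931954, scored 18.45 from 2 calls. At day 4 a single ssRNase call of replicate 1 remained in this part, at chr10:80931820-80931888, with the lowest score of the list, 5.4.

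Gadd45g had no PPS in its 3′ UTR at day 0. Day 2 brought chr13:51848033-51848116, 54 to 137 nt after the stop codon, with a score of 29.38 from both ssRNase sets and 1 dsRNase set, and chr13:51848182-51848278 with 15.41 from 2 calls of replicate 2. At day 4 both were inside longer sites, chr13:51847967-51848121 (score 35.08, 3 calls) and chr13:51848124-51848279 (score 28.77, 4 calls), which lay 2 nt apart. Another large site, chr13:51848332-51848447, had 14.21 from 1 call of each dsRNase replicate and none of ssRNase. The protected run of Gadd45g thus lengthened on both sides of its day 2 sites, as listed.

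In the 5′ UTR, Gadd45g reached 80.4% at day 4 (80.4% and 73.5% in the replicates) from 0% at day 0 and 22.5% at day 2, against an all-gene mean of 7.24% at day 4. Most of this was chr13:51846687-51846761, which had 1 call of each dsRNase replicate, none of ssRNase and a score of 15.55. Gadd45a had 5.56% (5.56% and 0%), 27.8% (25.3% and 2.47%) and 8.02% (8.02% in both) of its 5′ UTR protected, and Gadd45b none at any day.

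The start codon of Gadd45a lay in a PPS at every day. That site covered the end of exon 1, and at day 0 and day 4 it ran into the first intron of the main transcript (chr6:67037189-67037253 and chr6:67037178-67037257), a stretch that other annotated transcripts of the gene count as exonic. Scores were 8.14, 14.64 and 14.08 at the 3 days, from 1, 2 and 2 calls. Gadd45g had a site over its start codon at day 2 (chr13:51846757-51846820, 1 ssRNase call) and at day 4 (chr13:51846773-51846825, 1 ssRNase call). None was listed for Gadd45b.

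**Figure D4:**
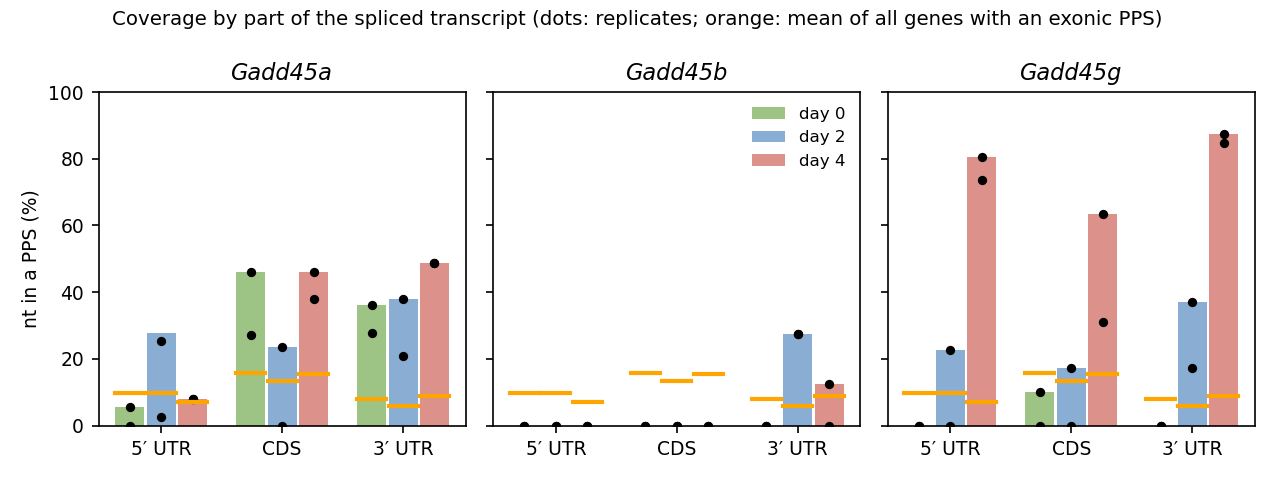
Percentage of the 5′ UTR, coding sequence and 3′ UTR in a PPS at each day (bars, merged list of the day; dots, replicates; orange lines, mean of all genes with an exonic PPS). Gadd45g reached 80.4%, 63.5% and 87.5% in the 3 parts at day 4, and with PPSs of 20 to 40 nt left out Gadd45b was covered in the 3′ UTR only.

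The coding sequence of Gadd45a was 46.0% protected at day 0 (46.0% and 27.3%), 23.7% at day 2 (0% and 23.7%) and 46.2% at day 4 (38.0% and 46.2%). That of Gadd45g went from 10.0% (10.0% and 0%) through 17.3% (0% and 17.3%) to 63.5% (63.5% and 31.0%), while means over all genes were 15.7%, 13.5% and 15.6%. The largest coding site of Gadd45a, in exon 3, came from ssRNase calls of both replicates at day 0 (chr6:67036678-67036813, score 14.95) and at day 4 (chr6:67036708-67036807, score 16.53) and had no counterpart at day 2. In Gadd45g the matching exon 3 site, chr13:51847675-51847757, appeared at day 4 alone, with a score of 19.15 from 3 calls.

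Whether the members were protected at corresponding places was read from an alignment of their coding sequences. Gadd45a and Gadd45b share 61.9% of aligned bases, Gadd45a and Gadd45g 63.1%, and Gadd45b and Gadd45g 64.8%. All 83 nt of that exon 3 site of Gadd45g fell on columns that the day 0 site of Gadd45a held, and 65 of them on those of the day 4 site. With 46.0% of the Gadd45a coding sequence at day 0 and 63.5% of that of Gadd45g at day 4 in a PPS, shared columns can come from coverage alone. Whether the overlap exceeds that was not tested. The sole day 0 site of Gadd45g, chr13:51847879-51847926, rested on a single call of dsRNase replicate 1. That exon 4 site of Gadd45g recurred at all 3 days (scores 5.4, 7 and 5.62), with a single call each time. Sites at the start codons shared 32 or 37 columns.

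Reads of a member could in principle have been placed on another, so the transcripts were compared over short windows. No 50-nt window, the length of the reads before trimming, matched another member within 2 mismatches, the number the alignment allowed. Of 1204 windows of 20 nt in Gadd45a, 10 matched Gadd45b and 11 matched Gadd45g within 2 mismatches, and of 1265 in Gadd45b none matched Gadd45g. The longest exact stretch shared by any pair was 17 nt, between Gadd45a and Gadd45g. Trimmed reads could be shorter than both windows, and the placement of such reads was not checked.

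**Figure D5:**
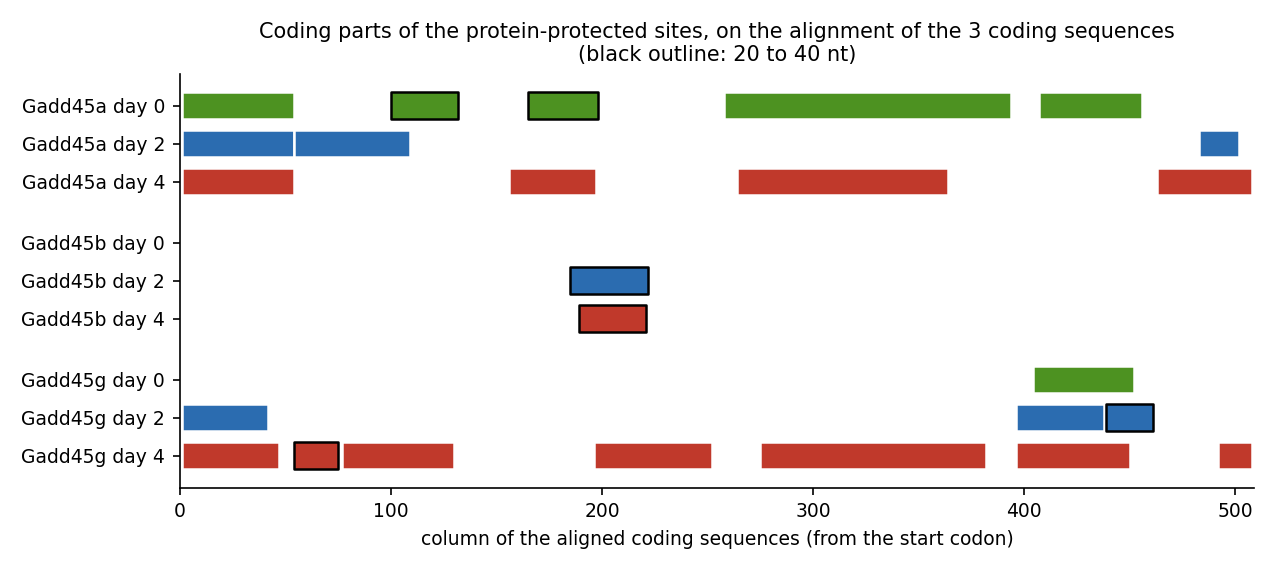
Coding parts of the PPSs placed on the alignment of the 3 coding sequences (x axis, alignment column from the start codon; rows, gene and day; black outline, sites of 20 to 40 nt). The larger exon 3 site of Gadd45g at day 4 lies wholly over the larger exon 3 site of Gadd45a at day 0, and Gadd45b has only its short exon 3 site.

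An intronic site of Gadd45a was listed at all 3 days. It lay in intron 3 of the main transcript at chr6:67036291-67036389 at day 0, chr6:67036292-67036360 at day 2 and chr6:67036297-67036382 at day 4, with scores of 6.82, 15.84 and 35.25. Its calls numbered 1, 2 and 4, and at day 4 every call set gave 1. Only 2.44% of the day 4 list scored as high. Exons of other annotated Gadd45a transcripts covered 19, 0 and 12 nt of it, so that most of the site is intronic in every annotated transcript. The introns of Gadd45b held no PPS, and those of Gadd45g held 1 of 34 nt at day 4, from a single call.

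With PPSs of 20 to 40 nt left out, joining sites of the 3 days that overlapped gave 8 regions on Gadd45a, 2 on Gadd45b and 9 on Gadd45g. Of the Gadd45a regions, 3 were present at all days, 1 at day 0 only, 1 at day 0 and day 4, and 3 after induction only. Of the Gadd45g regions, 1 was present at all days, 3 at day 2 and day 4 and 5 at day 4 only. Both Gadd45b regions were seen after induction only. These counts have no share over the regions of all genes beside them, so they do not set the family apart. With all lengths kept there were 9, 3 and 11 regions, of which 2, 3 and 10 were seen after induction only, since short day 0 sites of Gadd45a overlapped a day 2 site in exon 2 and a day 4 site in exon 3.

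Base composition inside and outside PPSs was compared within each spliced transcript, with no value over all genes beside it. The part of the transcript was not held constant, and the outside bases of Gadd45a include its T runs from 341 nt on. The share of T (U in the RNA) was lower inside the sites of Gadd45a at each day, at 17.2%, 16.7% and 18.7% against 26.0%, 25.5% and 25.8% outside. In Gadd45b at day 2 it was 13.1% against 22.2%, and in Gadd45g 15.3% against 20.7% at day 2 and 18.8% against 20.7% at day 4. The 48 protected nt of Gadd45g at day 0 went the other way, with 22.9% against 19.1%. The 3′ UTR of Gadd45a held 13 overlapping matches of TTTTT, all of them outside PPSs. They lay in runs of T between 341 and 523 nt, beyond position 292, past which no site of Gadd45a reached. That UTR also held 2 matches of ATTTA. The one at 261 to 265 nt was inside a PPS at every day, and the one at 506 to 510 nt never was. TTTTT occurs in 67.5% and ATTTA in 53.8% of 12397 3′ UTR stretches of the same length. The single GTGTG of Gadd45g, at 280 to 284 nt, was inside a PPS at day 2 and day 4, and 49.9% of 3′ UTR stretches of its length hold that word. At day 4 that UTR was 87.5% covered. GGTG had 1 match in Gadd45a, inside a PPS at every day. Of 2 in Gadd45g, 0, 1 and 2 were inside at the 3 days, and of 3 in Gadd45b 0, 0 and 1. GGTG occurs in 79.6% to 83.4% of stretches of those lengths. The Pumilio word TGTANATA was in none of the 3 UTRs. Only 10.5%, 10.5% and 9.18% of stretches of the lengths of Gadd45a, Gadd45b and Gadd45g hold it, so most genes lack it too. These words were searched on the sense strand, and a match is not evidence of a bound factor.

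Genes whose proteins bind or work with GADD45 moved either way. Of 20 such genes 17 had an exonic PPS, 5 with all day 4 replicates above day 0 and 4 with all below (29.4% and 23.5%, beside 30.8% and 25.4% of all genes). Their median change was -1.10 points beside 0 for all genes. The list changed by most in Apex1, an abasic-site endonuclease of base excision repair, with 31.6%, 7.24% and 4.22% at the 3 days. It was followed by Ccnb1, the mitotic cyclin of the CDK1 complex, with 26.5%, 21.01% and 3.77%. Map2k3, a kinase that acts on p38 below MAP3K4, went the other way, with 7.88%, 7.51% and 21.2%. No replicate of day 0 and day 4 overlapped in these 3 genes. Map2k6, Ppara and Eef1a1 held no exonic PPS. Whether reads of Eef1a1 were placed on similar copies elsewhere in the genome was not tested.

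Among 29 other growth arrest and damage response genes, 27 had an exonic PPS, and 11 lay above and 5 below day 0 at day 4 (40.7% and 18.5%, beside 30.8% and 25.4% of all genes), with a median change of 2.13 points. Btg2, an antiproliferative gene that recruits the deadenylase, went from 0% to 18.7% and 53.7%. Dusp1, the MAP kinase phosphatase that acts on p38 and JNK, went from 5.65% to 11.5% and 33.7%. Chac1, a glutathione-degrading enzyme of the unfolded protein response, went from 28.3% to 14.4% and 0%. These 3 did not overlap between day 0 and day 4 either.

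Of 11 RNA-binding proteins known for acting on short-lived messages, all had an exonic PPS on their own transcripts, 4 were above and 0 below day 0 at day 4 (36.4% and 0%, beside 30.8% and 25.4% of all genes), and the median change was 3.03 points. Zfp36l2, a decay factor for AU-rich messages, had 31.2%, 34.8% and 41.0%, and Tia1, a translational repressor that binds U-rich stretches, had 4.48%, 5.57% and 10.7%. Zfp36l1 had 1.81%, 1.84% and 7.02%, with replicates that overlapped. Which proteins lay on the Gadd45 sites was not measured.

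The genes closest to each member over the 12 call sets were ranked by Pearson's r among 697 genes, as a description. The call sets of a day share a merged list, so these points are not independent. Gadd45g was most like Btg2 (r = 0.947), followed by the mitochondrial rRNA methyltransferase Mrm1 (0.942), the cytokine-signalling suppressor Cish (0.933), the mitochondrial iron importer Slc25a37 (0.928) and Asb1 (0.916). Gadd45a was most like the RNA helicase Ddx17 (0.874), the chromatin remodeller Atrx (0.869), the kinase Prpf4b (0.858), the mRNA export receptor Nxf1 (0.851) and the m6A reader Ythdf3 (0.850). Gadd45b had coverage in 5 of the 12 sets, and its nearest genes, Atg101 (0.791), Icam4 (0.746), Romo1 (0.709), Sbds (0.6996) and Ormdl3 (0.699), were less close. Within the family r was 0.568 for Gadd45a with Gadd45g, -0.560 for Gadd45a with Gadd45b and -0.0311 for Gadd45b with Gadd45g.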

How the data were processed

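PIP-seq of MEL cells gave 24 libraries, grouped from their titles by day, RNase and protein treatment. According to the submitters' notes and the methods, the authors trimmed reads with cutadapt 1.2.1, collapsed them, aligned them to mm10 with TopHat2 2.0.10 and removed PCR duplicates. They called PPSs with a modified CSAR package (Poisson test of footprint against protein-free coverage, FDR of 5%) and deposited 1 merged list per day. The deposited score is the authors' enrichment value, with library scaling not stated, and the deposited name field gives the calls behind each PPS. These names were matched to the titles. The lists do not give the reads behind a PPS, so counting error per site is unknown.

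Exonic coverage was computed with Python 3.11.15 and numpy 2.4.6 over GENCODE release M21, and PPSs of 20 to 40 nt were left out of it. All PPS ends lay within the chromosomes of that assembly. In a simulated run of the coverage step on 21938 genes, 200 of 200 genes given a site were recovered. Each site had calls of both replicates at day 4 and none at day 0, without noise. The run thus checks the code only, not the reliability of the calls. Windows of the transcripts used the transcript with the longest coding sequence. Coding sequences were aligned with mafft 7.526. Protein sequences were not used here, so identity is that of coding bases. A sequence considered for printing is not reported here.

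The members, the gene lists and the rules were chosen with earlier results of these data known. No p-value was computed, since the values chose the family and an exact permutation test of 2 replicates against 2 cannot go below 0.333. Genes named beside the family are the 3 of each list with the largest change from day 0 to day 4 and the 5 per member with the highest r, among genes of at least 500 exonic nt, with at least 20% in a call set and no shared exonic nt. Alternatives were all lengths, a score at or above the list's median, PPSs of both replicates, each RNase alone, exons of 1 transcript, and each replicate left out. Regions were also joined by a stricter rule of overlap. It gave 9 regions on Gadd45a, 2 on Gadd45b and 10 on Gadd45g.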

Additional observations from a re-analysis of the deposited data

Results flagged for a closer look

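The comparisons between days leave out PPSs of 20 to 40 nt, and that class held sites on Gadd45b and Gadd45g after induction where day 0 had 0. In the whole lists, 114907 of 138689 PPSs lay outside that class at day 0. At day 2 it was 119487 of 169575, and at day 4 122038 of 152513. The class thus made up more of the lists after induction, over all genes. Gadd45b had 1 such site at day 2 (chr10:80931058-80931094, dsRNase replicate 1) and 1 at day 4 (chr10:80931062-80931093, dsRNase replicate 2), at the same place in exon 3 and each from a single call. Gadd45g had 1 at day 2, in exon 4, and 2 at day 4, in intron 1 and exon 2, each from a single call and in different places. Gadd45a had 2 at day 0, 0 at day 2 and 1 at day 4. No test was possible on these counts.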

How the results depend on the processing

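Of 174 results recomputed under an alternative, 122 stayed close, 49 moved and 3 reversed. A difference of coverage stayed close if it moved by less than the spread between pairs of replicates, and a count if it stayed within 1.5 times. The cause was not tested except where fewer PPSs or calls are kept by construction. The reversals were all of Gadd45a, whose difference of exonic coverage between day 4 and day 0 was -3.23 points with ssRNase calls only, and between day 2 and day 0 was 7.37 points with dsRNase calls only and 4.76 points without replicate 1 of day 0. No paired analysis was possible because the results come from no test and no label ties a replicate of a day to that of another.

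With PPSs of both replicates only, the day 4 minus day 0 difference was 12.4 points for Gadd45a, 0 for Gadd45b and 54.4 for Gadd45g, and the day 2 minus day 0 difference of Gadd45g was 7.16. The PPSs of Gadd45a then numbered 2 at day 0 and 2 at day 2, those of Gadd45b 0 at day 4, and those of Gadd45g 0, 1 and 6 at the 3 days. Gadd45a then had 4 regions, 1 of them at all days, and Gadd45g had 0 at all days. The counts of the gene lists were not run in this setting, since both replicates then hold the same PPSs. With scores at or above the median of the list, Gadd45a changed by -11.96 points from day 0 to day 2, Gadd45b by 0 and Gadd45g by 54.4 from day 0 to day 4, and the PPSs were 4 for Gadd45a at day 2, 0 for Gadd45b at day 4 and 0, 2 and 6 for Gadd45g. Of the RNA-binding protein genes, 1 then lay below day 0 at day 4.

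With dsRNase calls only, the day 4 minus day 0 difference was 14.0 points for Gadd45a, 0 for Gadd45b and 56.3 for Gadd45g, with 2 PPSs on Gadd45a at day 0, 0 on Gadd45b at day 4, 2 on Gadd45g at day 2 and 2 RNA-binding protein genes below day 0. With ssRNase calls only, that of Gadd45g was 47.2 points, with 3 PPSs on Gadd45a at day 4, 0 and 6 on Gadd45g at day 0 and day 4, and 8 damage response and 3 RNA-binding protein genes below day 0. With all lengths kept, the day 2 minus day 0 difference of Gadd45b was 11.96 points and its PPSs at day 4 numbered 2, and with exons of 1 transcript that difference was 11.9.

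Leaving out each replicate in turn gave day 4 minus day 0 differences of 2.21 to 14.7 points for Gadd45a, 0 to 4.34 for Gadd45b and 51.5 to 69.5 for Gadd45g, and day 2 minus day 0 differences of -13.3 to 4.76 for Gadd45a and 3.07 to 24.5 for Gadd45g, the lowest of these without replicate 2 of day 2. PPSs numbered 2 to 6 and 4 to 5 on Gadd45a at day 0 and day 2, 0 to 1 on Gadd45b at day 4, and 0 to 1 and 1 to 4 on Gadd45g at day 0 and day 2. The value of Gadd45b at day 4 rests on replicate 1 of that day, and that of Gadd45g at day 0 on replicate 1 of day 0.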
